A study of Mus musculus with 11 samples.

Results

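Both tumor models of the series were set together against normal mouse brain, to describe the expression changes that 2 different oncogenes share. All 11 libraries were used: 4 tumors driven by NRAS G12V, 4 driven by PDGFB and 3 samples of normal brain. A gene was tested when it reached 1 FPKM (sequenced fragments relative to transcript length and to the size of the library) in at least 3 of the 11 libraries, which kept 14491 of 24320 gene rows. The pooled change is the mean of the NRAS and PDGFB means minus the normal mean on the log2(FPKM + 1) scale, so each oncogene has the same weight. A change was called at a Benjamini-Hochberg adjusted p under 0.05 and is named common where, in addition, all 8 tumors lay on one side of all 3 normal brains. All changes below are on this scale, which understates the change of genes with low values.

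In both models a cut-and-paste DNA transposon (Sleeping Beauty) was used to insert the transgenes from plasmids given to newborn mice by injection into a lateral ventricle. All 8 tumors received the transposase, firefly luciferase and the SV40 large T antigen, together with either constitutively active NRAS G12V or PDGFB, and the normal brains are labelled as wild-type controls. Tumor tissue was cut out at the middle stage of growth, guided by green fluorescence, and normal tissue came from regions without it. The study text gives FVB as the strain, but the sample labels give B6 for every library except normal brain 3, which is FVB. Normal brain 1 is labelled as matched to NRAS tumor 2 and normal brain 3 as matched to PDGFB tumor 1, the age and brain region are not given, and the labels do not say that replicates are separate animals. P-values therefore measure the spread between these samples, which may be technical. The title numbers run from 1834 to 1838 for the 3 normal brains and NRAS tumors 1 and 2 and from 2038 to 2046 for the other 6 tumors, without a stated meaning, so that for PDGFB tumors the oncogene and the number series cannot be told apart.

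NRAS is a small GTPase that passes signals from growth factor receptors to the RAF, MEK and ERK kinases, and the G12V form stays switched on. PDGFB is a secreted growth factor that binds the PDGF receptors, which are found on oligodendrocyte progenitors among other cells and use RAS and PI3K downstream. Large T antigen binds and inactivates the RB family of proteins, which otherwise hold back E2F transcription factors and entry into S phase, and binds p53, the DNA damage-responsive transcription factor. Gliomas are known for growing within brain tissue, so a piece of tumor holds tumor cells together with neurons, glia, vessels and immune cells. In such bulk samples fewer cells of a type and less RNA per cell cannot be told apart.

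The libraries held 12705 to 13923 genes at 1 FPKM or more, and their depths relative to the deepest library, inferred from the smallest FPKM steps, lay between 0.776 and 1. Relative depth followed the groups without overlap. It was 0.776 to 0.814 in normal brains, 0.850 to 0.890 in PDGFB tumors and 0.932 to 1 in NRAS tumors. Total read counts are not given. Small RNA genes took 10.5% to 42.8% of the summed FPKM of a library. The oncogene transcripts were looked at to check the sample labels. Nras read 154, 139, 119.7 and 81.999 FPKM in NRAS tumors 1 to 4, 36.5, 42.9, 38.998 and 31.7 FPKM in PDGFB tumors 1 to 4 and 13.8, 13.01 and 17.5 FPKM in normal brains 1 to 3. All 8 tumors lay above all normal brains, and the NRAS tumors lay above the PDGFB tumors, with a pooled change of 2.12 (SE 0.18, adjusted p = 8.10e-06). Pdgfb read 5.15, 5.49, 6.46 and 7.799 FPKM in NRAS tumors 1 to 4, 1030.1, 1564, 904 and 745 FPKM in PDGFB tumors 1 to 4 and 6.88, 6.12 and 7.19 FPKM in normal brains 1 to 3. Only the PDGFB tumors were raised, with a change of 7.05 against -0.11 in NRAS tumors, so Pdgfb had a pooled change of 3.47 and was not common.

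Of the genes tested, 9324 (64.3%) were called, 4837 higher (33.4%) and 4487 lower (31%). The common set held 7021 genes (48.5%), of which 3539 were higher (24.4%) and 3482 lower (24%) in every tumor. Most of these changes were moderate: the median was 1.06 for genes higher in common and -1.16 for genes lower in common. A common change of at least 2-fold was seen for 1919 higher and 2091 lower genes, and one of at least 4-fold for 647 and 543. All 8 tumors lay on one side of the normal brains, whatever the adjusted p, for 7100 genes (49%). For 2303 called genes the 8 tumors did not all lie beyond the normal brains, 1298 of them called higher and 1005 called lower. The counts of each gene list below stand against the shares of all genes tested given here.

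Within the common set the size of the change was compared between the models in the same fit. For 4887 genes (33.7% of all tested) the 95% interval of the NRAS minus PDGFB difference lay inside 2-fold either way, and these are named even: 2380 higher and 2507 lower. For 1285 genes (8.87% of all tested) the difference itself had an adjusted p under 0.05, and these are named unequal. NRAS tumors had moved further for 564 of the unequal higher genes and PDGFB tumors for 478, while of the unequal lower genes NRAS tumors had moved further for 125 and PDGFB tumors for 118. Both conditions held for 320 genes whose small difference was precisely measured, and neither held for 1169. Over all genes tested, 3852 (26.6%) differed between NRAS and PDGFB tumors, and 138 called genes had changes of opposite sign in the 2 models.

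The tumors did not move equally far. The median change from the normal mean over the genes higher in common was 0.73 in NRAS tumor 2 and between 0.91 and 1.24 in the other 7 tumors. Over the genes lower in common it was -0.75 in NRAS tumor 2 and between -1.03 and -1.45 in the others. NRAS tumor 2 was the tumor closest to normal brain for 1692 of the 3539 higher and 1734 of the 3482 lower genes. Exactly 7 of 8 tumors lay beyond the normal brains for 724 called higher and 646 called lower genes. The remaining tumor was NRAS tumor 4 for 212 of the higher genes and NRAS tumor 2 for 162, and among the lower genes it was NRAS tumor 2 for 170 and PDGFB tumor 4 for 151.

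**Figure D1:**
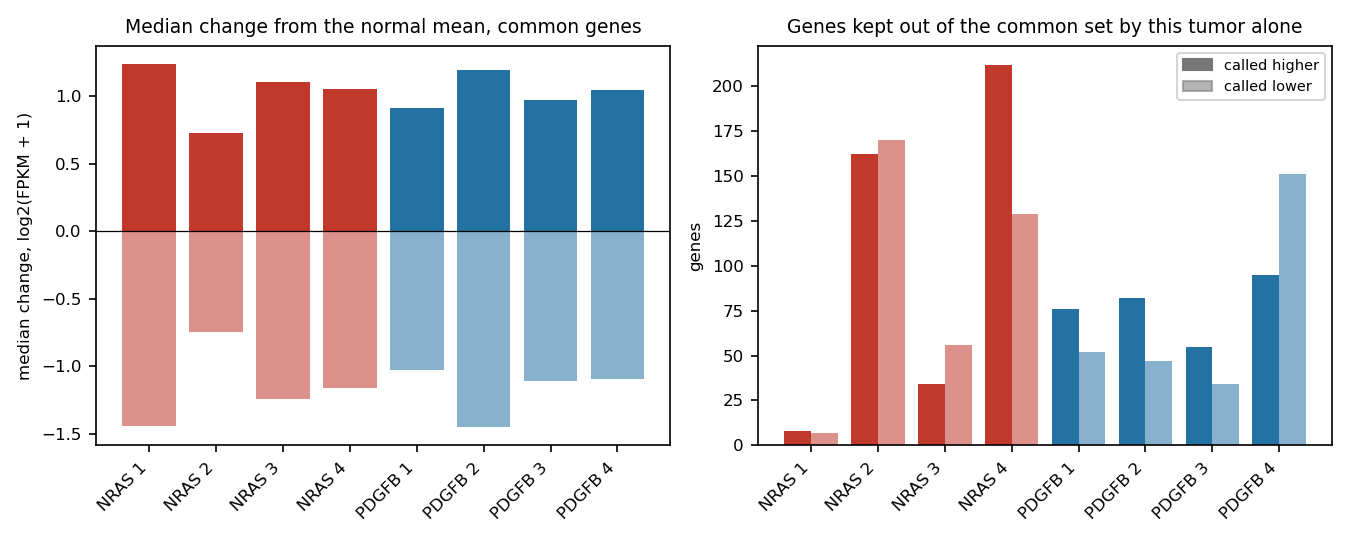
The left panel plots, for each of the 8 tumors, the median change from the normal mean in log2(FPKM + 1) over the 3539 genes higher in common (upward bars) and the 3482 genes lower in common (downward bars). The right panel counts the called genes for which that tumor alone did not lie beyond the normal brains, with red bars for NRAS and blue bars for PDGFB tumors. NRAS tumor 2 has the shortest bars at 0.73 and -0.75, and NRAS tumor 4 has the tallest single bar in the right panel with 212 genes.

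The 10 highest common changes, among genes with a mean of at least 5 FPKM in the higher group, were those of Cdkn2a, Hmga2, Timp1, Top2a, Ccnb1, Igfbp3, Cdkn2b, Ube2c, Cdk1 and Ccnd1. Of these, 7 belong to cell division or its control by RB, and the others encode a chromatin protein of embryonic cells (Hmga2), a protease inhibitor (Timp1) and a binding protein of insulin-like growth factors (Igfbp3). Cdkn2a, which encodes an inhibitor of CDK4 and CDK6 and an activator of p53 from overlapping reading frames, read 446, 191, 348 and 162 FPKM in NRAS tumors 1 to 4, 175, 349, 188 and 256 FPKM in PDGFB tumors 1 to 4 and 0, 0.104 and 0.413 FPKM in normal brains 1 to 3. It lies at chr4:89274473-89294619 (GRCm38.p6). Every tumor stood far above every normal brain, and the change of 7.74 (SE 0.31, adjusted p = 8.80e-08) was the largest of the even genes, with 7.83 in NRAS and 7.66 in PDGFB tumors. Hmga2 ranged from 28.9 to 162 FPKM in the 8 tumors, with a median of 58.4, and was 0.0359, 0.105 and 0.128 FPKM in normal brains 1 to 3, a change of 5.86 (SE 0.27, adjusted p = 2.07e-07). Igfbp3 ranged from 158 to 1043 FPKM in the 8 tumors, with a median of 394, and was 10.1, 9.202 and 6.93 FPKM in normal brains 1 to 3. Its change of 5.34 was unequal, with 6.06 in NRAS and 4.61 in PDGFB tumors.

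**Figure D2:**
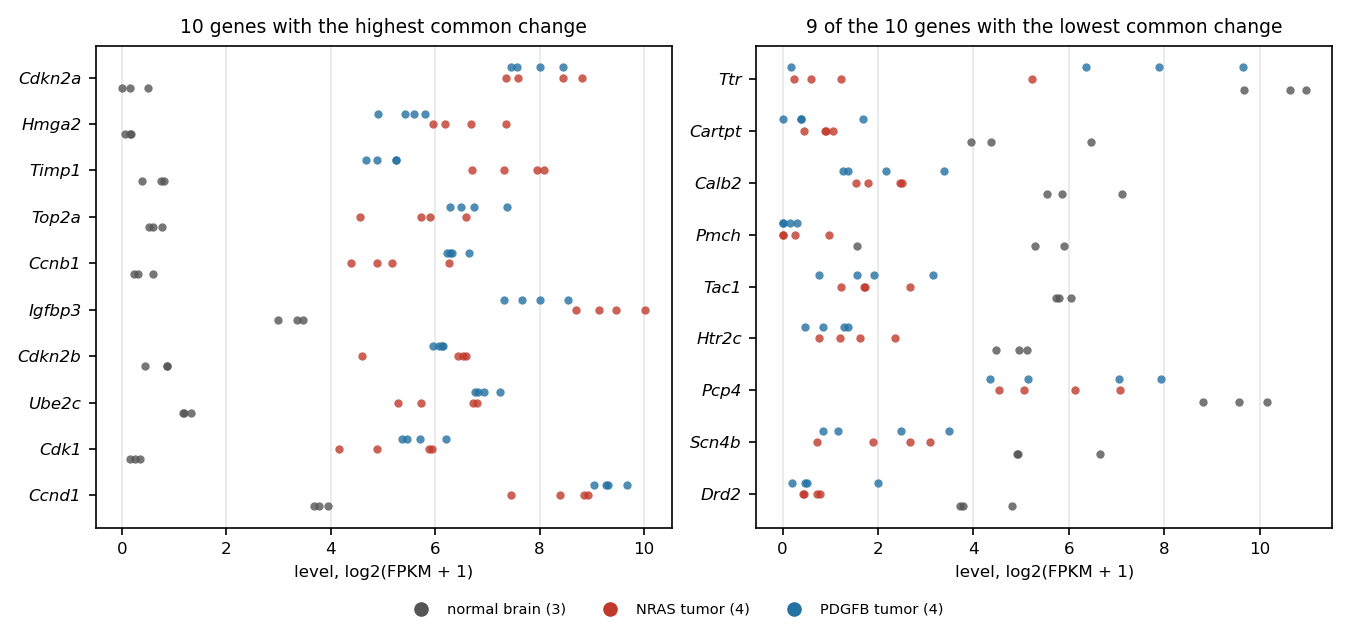
Levels in log2(FPKM + 1) of the 10 genes with the highest (left) and 9 of the 10 with the lowest (right) common change, with 1 point per library in grey for normal brain, red for NRAS and blue for PDGFB tumors. The grey points stay apart from all colored points in every row, which the choice of common genes fixed beforehand. The narrowest gap among the lowest genes is that of Ttr, where PDGFB tumor 4 at 798 FPKM lies just under normal brain 1 at 811 FPKM.

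Top2a, Ccnb1, Ube2c and Cdk1 had the largest changes among the DNA replication and mitosis genes. They encode topoisomerase II alpha, which untangles chromosomes, cyclin B1 and its kinase CDK1, which start mitosis, and the ubiquitin-conjugating enzyme of the anaphase-promoting complex. The 250 bases before their RefSeq starts are shown because genes of this class are known to share promoter elements, the CCAAT box bound by NF-Y and the CHR element TTTGAA bound by the DREAM and MuvB complexes. They are given 5′ to 3′ on the gene's strand from the RefSeq promoter table of build GRCm38.p6, which corresponds to mm10, and the capitals mark CCAAT and TTTGAA on either strand, where they read ATTGG and TTCAAA in reverse.
Top2a: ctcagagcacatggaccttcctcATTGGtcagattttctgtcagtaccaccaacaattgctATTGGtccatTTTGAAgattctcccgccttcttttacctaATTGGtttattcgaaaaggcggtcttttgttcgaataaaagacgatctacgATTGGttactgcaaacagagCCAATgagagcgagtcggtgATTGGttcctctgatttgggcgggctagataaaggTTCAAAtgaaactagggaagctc
Ccnb1: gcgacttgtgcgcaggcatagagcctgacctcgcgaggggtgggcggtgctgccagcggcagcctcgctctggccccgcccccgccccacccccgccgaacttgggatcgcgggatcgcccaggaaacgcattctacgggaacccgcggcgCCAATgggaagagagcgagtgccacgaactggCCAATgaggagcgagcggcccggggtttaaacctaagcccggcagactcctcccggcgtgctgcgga
Ube2c: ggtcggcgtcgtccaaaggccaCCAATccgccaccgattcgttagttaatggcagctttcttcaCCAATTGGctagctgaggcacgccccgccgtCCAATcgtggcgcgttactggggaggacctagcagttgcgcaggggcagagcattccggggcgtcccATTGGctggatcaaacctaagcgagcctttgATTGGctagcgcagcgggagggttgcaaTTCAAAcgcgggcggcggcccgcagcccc
Cdk1: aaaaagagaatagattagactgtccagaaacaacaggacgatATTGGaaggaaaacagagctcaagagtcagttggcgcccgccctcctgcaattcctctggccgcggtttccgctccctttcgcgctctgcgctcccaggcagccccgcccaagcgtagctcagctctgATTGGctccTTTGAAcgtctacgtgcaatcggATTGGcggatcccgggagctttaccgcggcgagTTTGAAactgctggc
Top2a lies on the minus strand at chr11:99024190-99024439, Ccnb1 on the minus strand at chr13:100786487-100786736, Ube2c on the plus strand at chr2:164769679-164769928 and Cdk1 on the minus strand at chr10:69352913-69353162. CCAAT was found 6 times for Top2a, 2 times for Ccnb1, 6 times for Ube2c and 3 times for Cdk1, with overlapping words on the 2 strands counted separately. TTTGAA was found 2 times for Top2a, 1 time for Ube2c and 2 times for Cdk1, and not in this window for Ccnb1. None of the 4 windows held TTTCCCGC, TTTGGCGC or TTCCCGCC, the E2F-type words searched.

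Of the mitosis genes, 24 of 28 had a promoter in the table, and of these 19 (79.2%) held CCAAT and 13 (54.2%) held it at least 2 times, against 34.5% and 10.5% of all 27025 promoters of that length in the table. TTTGAA was present in 8 of the 24 (33.3%), against 16.3% of all promoters. No mitosis promoter held any of the E2F-type words. Of the DNA replication genes, 23 of 28 had a promoter in the table, and 7 of them (30.4%) held such a word against 2.75% of all promoters, while 15 (65.2%) held CCAAT. These shares describe letters in a window and were not tested, and among the genes tested the share with an E2F-type word was 4.96%, with CCAAT 36.1% and with TTTGAA 10.1%. Fewer than 80% of the genes tested, and of the genes changed in common, matched the table (10972 of 14491), so no share is given for the common sets.

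DNA replication genes were higher in every tumor without exception. All 28 genes of that list, which holds the MCM helicase, the origin loading factors, polymerases and nucleotide enzymes, were called higher and common, where 24.4% of all genes tested were, with a median change of 3.05 against 0.05 over all genes tested. Rrm2, the subunit of ribonucleotide reductase that is made in S phase, ranged from 25.9 to 103 FPKM in the 8 tumors, with a median of 73.97, and was 0.895, 0.908 and 1.43 FPKM in normal brains 1 to 3. Its change was 4.99 (SE 0.27, adjusted p = 6.35e-07). Mcm6, Mcm3 and Mcm2, subunits of the helicase that opens replication origins, changed by 4.95, 4.50 and 4.39. The summed level of the list was 1492, 491, 1025 and 777 FPKM in NRAS tumors 1 to 4, 1165, 1918, 1136 and 1256 FPKM in PDGFB tumors 1 to 4 and 117, 114 and 109 FPKM in normal brains 1 to 3. NRAS tumor 2 was the lowest tumor and PDGFB tumor 2 the highest.

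Of the 28 mitosis genes 27 were higher in common, with a median change of 4.07, and Anln, an actin-binding protein of the cleavage furrow that myelinating cells also express, did not pass (change 0.55, adjusted p = 0.292). Top2a read 95.5, 22.6, 59.01 and 52.2 FPKM in NRAS tumors 1 to 4, 106, 164, 88.7 and 77.04 FPKM in PDGFB tumors 1 to 4 and 0.513, 0.708 and 0.437 FPKM in normal brains 1 to 3. The lowest tumor, NRAS tumor 2, was still far above the highest normal brain, and the change was 5.58 (SE 0.35, adjusted p = 1.34e-06). Ccnb1 ranged from 20.05 to 99.2 FPKM in the 8 tumors, with a median of 75.2, and was 0.168, 0.229 and 0.514 FPKM in normal brains 1 to 3, a change of 5.40 (SE 0.30, adjusted p = 7.39e-07). Ube2c changed by 5.32 and Cdk1 by 5.21. The models differed in size for 9 of the 27 genes, in each of which the PDGFB tumors had moved further, and the list median was 3.65 in NRAS and 4.55 in PDGFB tumors.

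Genes of the RB and E2F pathway were higher in part. Of 28 tested, 22 were called higher, 21 of them in common, none lower, and the list median was 1.61. Over all genes tested 33.4% were called higher and 24.4% were higher in common. Ccnd1, cyclin D1, the partner of CDK4 and CDK6 that links growth factor signals to RB, ranged from 173 to 813 FPKM in the 8 tumors, with a median of 507, and was 14.5, 12.8 and 11.8 FPKM in normal brains 1 to 3. Its change of 5.06 (SE 0.27, adjusted p = 6.35e-07) was larger in PDGFB (5.52) than in NRAS tumors (4.60). Cdkn2b, a CDK4 and CDK6 inhibitor that neighbors Cdkn2a at chr4:89306289-89311032, read 91.7, 95.3, 85.3 and 23.2 FPKM in NRAS tumors 1 to 4, 60.8, 66.6, 70.3 and 68.8 FPKM in PDGFB tumors 1 to 4 and 0.825, 0.804 and 0.361 FPKM in normal brains 1 to 3. It was even between the models (5.32 and 5.36), although NRAS tumor 4 was low among its group. Cdkn1a, a CDK inhibitor and p53 target, ranged from 78.5 to 265 FPKM in the 8 tumors, with a median of 88.7, and was 7.73, 4.07 and 5.96 FPKM in normal brains 1 to 3, a change of 4.07 (SE 0.34, adjusted p = 7.89e-06).

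Known p53 target genes were mostly higher as well: 13 of 17 were called higher, 11 in common and none lower, with a median of 1.26. Of all genes tested 33.4% were called higher and 24.4% were higher in common. With the 2 title number ranges as a covariate 8 p53 target genes were left in the common set. Beside Cdkn1a, the largest common changes were those of Eda2r, a receptor of the TNF family, at 3.20 (SE 0.33, adjusted p = 2.56e-05), Gdf15, a secreted stress factor, at 2.60 (SE 0.28, adjusted p = 3.45e-05) and Tnfrsf10b, a death receptor, at 2.13 (SE 0.30, adjusted p = 1.80e-04). Gdf15 and Tnfrsf10b had moved further in NRAS tumors. All 24 DNA repair genes were called higher, 21 in common. Clspn, an adaptor of the replication checkpoint, changed by 3.22, Timeless, a replication fork protector, by 3.03 and Rad54l, a recombination gene, by 2.89.

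Of 27 chromatin and DNA methylation genes, 20 were higher and 2 lower, all 22 in common, where 24.4% and 24% of all genes tested were. Hmgb2, a DNA-bending protein, Uhrf1, which guides maintenance of DNA methylation, and Chaf1b, a subunit of the histone loader at replication forks, changed by 4.84 (SE 0.39, adjusted p = 6.18e-06), 4.74 (SE 0.30, adjusted p = 1.39e-06) and 4.21 (SE 0.37, adjusted p = 9.46e-06). Uhrf1 ranged from 14.9 to 61.02 FPKM in the 8 tumors, with a median of 39.98, and was 0.423, 0.624 and 0.414 FPKM in normal brains 1 to 3. These 3 genes are themselves expressed mainly in dividing cells.

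**Figure D3:**
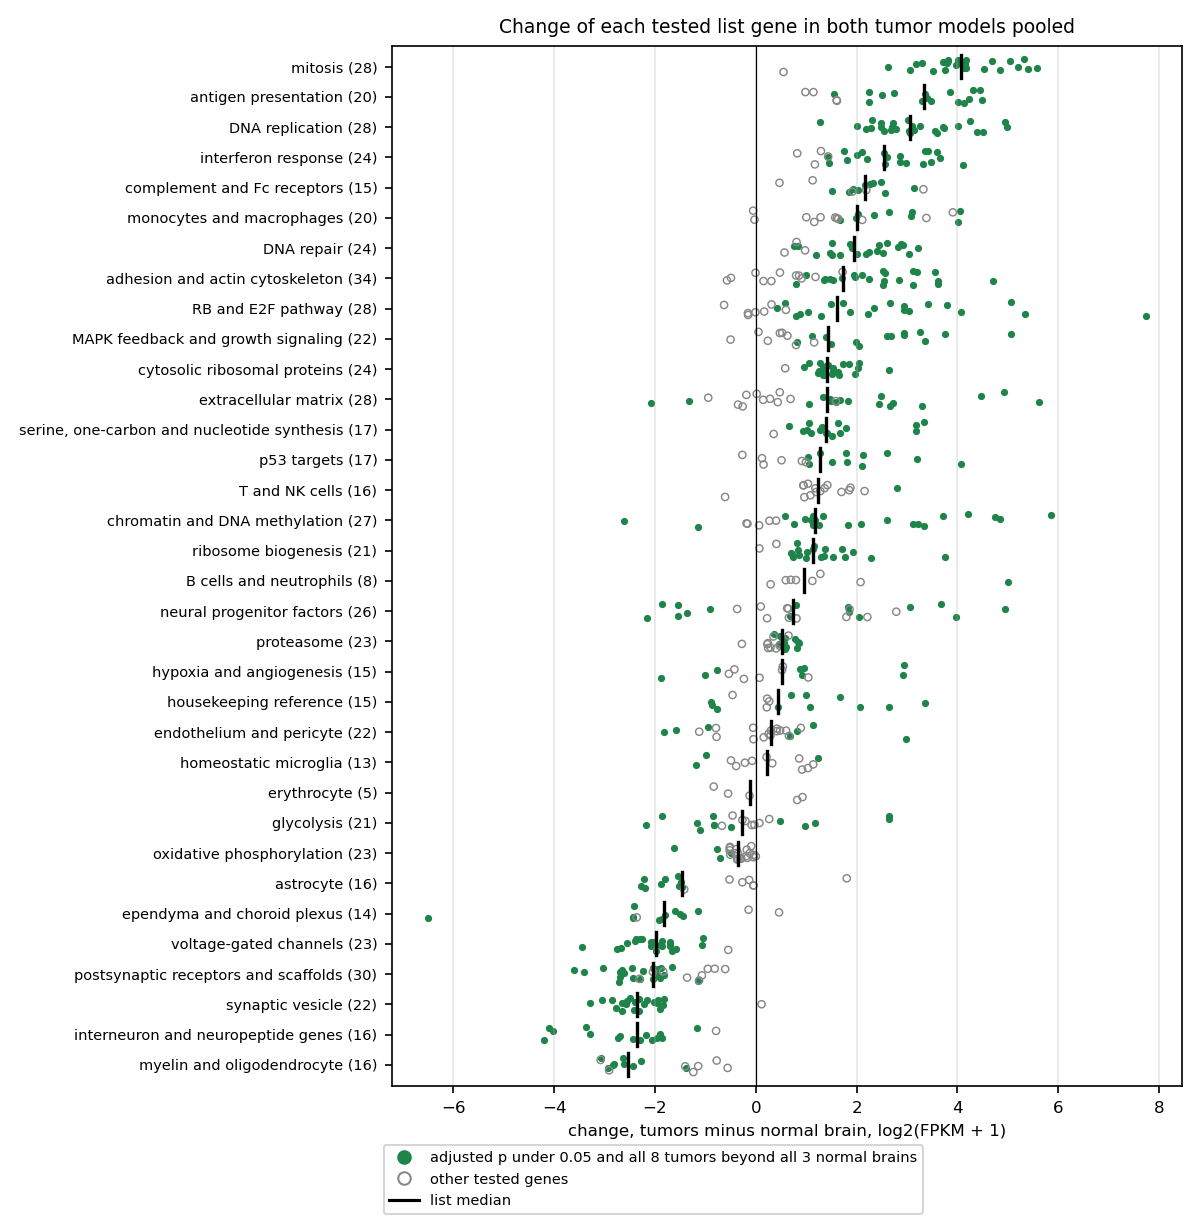
Each point is the pooled change (tumors minus normal brain, log2(FPKM + 1)) of 1 tested gene of the list named on the left, with the number tested in parentheses, and a short black line marks the list median. Filled green points are genes changed in common and open points are the other genes tested. The mitosis list has its median at 4.07, and the synaptic, channel and neuropeptide lists lie almost wholly to the left of 0.

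Genes of the machinery that makes proteins were higher, by amounts that mostly lay within 2-fold of each other in the 2 models. Of 24 cytosolic ribosomal protein genes 23 were higher in common and 22 of these were even, with medians of 1.29 in NRAS and 1.54 in PDGFB tumors. Rplp0, of the ribosomal stalk, ranged from 597 to 1467 FPKM in the 8 tumors, with a median of 1116, and was 184, 153 and 162 FPKM in normal brains 1 to 3, a change of 2.64 (SE 0.25, adjusted p = 1.52e-05). Rps4x and Rps18, of the small subunit, changed by 2.04 and 2.03. Ribosomal protein genes have many processed pseudogenes, and how the quantification shared reads among copies is not given.

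Of 21 ribosome biogenesis genes 20 were called higher, 19 in common, and 18 were even. Myc, the transcription factor known to drive this program, ranged from 19.7 to 55.4 FPKM in the 8 tumors, with a median of 36.2, and was 1.62, 1.98 and 1.48 FPKM in normal brains 1 to 3, a change of 3.74 (SE 0.27, adjusted p = 2.81e-06). Ddx21, a helicase of rRNA processing, read 45.8, 24.2, 42.5 and 45.8 FPKM in NRAS tumors 1 to 4, 44.7, 63.9, 37.1 and 34.6 FPKM in PDGFB tumors 1 to 4 and 6.58, 8.21 and 8.001 FPKM in normal brains 1 to 3. The lowest tumor, NRAS tumor 2, stood apart from the other NRAS tumors and remained above the normal brains. Fbl, which methylates rRNA, and Npm1, a nucleolar chaperone, changed by 1.92 and 1.77. All 17 genes of serine, one-carbon and nucleotide synthesis were called higher, 16 in common. Shmt2 and Mthfd2, enzymes of the mitochondrial folate pathway, changed by 3.33 (SE 0.22, adjusted p = 1.47e-06) and 3.17 (SE 0.21, adjusted p = 1.48e-06), the cytosolic Shmt1 by 3.17 and Psph, the last enzyme of serine synthesis, by 1.79. Mthfd2 ranged from 30.3 to 66.4 FPKM in the 8 tumors, with a median of 44.1, and was 5.19, 3.51 and 3.68 FPKM in normal brains 1 to 3.

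Glycolysis genes changed in both directions, as did all genes tested. Among 21 glycolysis genes 5 were higher and 8 lower in common, where 24.4% and 24% of all genes tested were. The count higher in common was near that background. Hk2, the hexokinase isoform of growing and hypoxic cells, ranged from 4.12 to 28.9 FPKM in the 8 tumors, with a median of 8.503, and was 0.874, 0.709 and 0.454 FPKM in normal brains 1 to 3, and Slc16a3, the lactate exporter, changed by 2.64 (SE 0.41, adjusted p = 2.79e-04). Eno2, the neuronal enolase, ranged from 30.4 to 196 FPKM in the 8 tumors, with a median of 93.7, and was 425, 371 and 409 FPKM in normal brains 1 to 3. It fell by 2.19 (SE 0.44, adjusted p = 0.00135) and Aldoc, the brain aldolase found in astrocytes and Purkinje cells, by 1.87 (SE 0.42, adjusted p = 0.00274). Of 23 oxidative phosphorylation genes none was called higher and 11 were lower, where 33.4% and 31% of all genes tested were. Lower in common were 4, a share below the 24% of all genes tested. These were Ppargc1a, a coactivator of mitochondrial genes (-1.61), Sdha (-0.77), Ndufs1 (-0.71) and Uqcrc2 (-0.49), subunits of complexes II, I and III. The 11 calls became 4 without normal brain 1 and 4 without normal brain 3. The count of 4 in common became 13 without PDGFB tumor 4, and 13 with small RNA genes left out and the libraries rescaled.

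Most genes of the 4 neuronal lists were lower in common. Of 22 genes of synaptic vesicles and transmitter release, 21 were lower in common (24% of all genes tested were), none was higher, and the list median was -2.36. Sv2c, a vesicle protein of the basal ganglia, did not pass (change 0.11). Slc17a6, the vesicular glutamate transporter of subcortical neurons, ranged from 0.925 to 5.79 FPKM in the 8 tumors, with a median of 1.8997, and was 57.5, 14.1 and 33.7 FPKM in normal brains 1 to 3, a change of -3.29 (SE 0.47, adjusted p = 1.93e-04). Slc32a1, the vesicular transporter of GABA, ranged from 1.43 to 10.9 FPKM in the 8 tumors, with a median of 4.77, and was 39.5, 39.9 and 32.4 FPKM in normal brains 1 to 3, a change of -2.78 (SE 0.41, adjusted p = 2.26e-04). Rph3a and Rims1, which act in vesicle docking and release, fell by 3.06 and 2.85. The summed level of the list was 536, 2436, 1013 and 1201 FPKM in NRAS tumors 1 to 4, 1356, 399, 1060.2 and 1380.1 FPKM in PDGFB tumors 1 to 4 and 4952, 4934 and 5658 FPKM in normal brains 1 to 3. All tumors lay below normal brain, with NRAS tumor 2 the nearest and PDGFB tumor 2 the farthest.

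Of 30 postsynaptic genes 29 were called lower and 21 in common, and of 23 voltage-gated channel genes 22 were lower in common. Htr2c, a serotonin receptor of choroid plexus and neurons, ranged from 0.388 to 4.11 FPKM in the 8 tumors, with a median of 1.38, and was 30.03, 34.1 and 21.3 FPKM in normal brains 1 to 3, a change of -3.62 (SE 0.32, adjusted p = 9.37e-06). Drd2, the dopamine receptor of striatal neurons, read 0.373, 0.339, 0.659 and 0.712 FPKM in NRAS tumors 1 to 4, 3.02, 0.383, 0.144 and 0.419 FPKM in PDGFB tumors 1 to 4 and 12.2, 12.8 and 27.1 FPKM in normal brains 1 to 3. Its change was -3.41 (SE 0.36, adjusted p = 3.09e-05), and tumors and normal brains did not overlap, as for every common gene by definition. Ppp1r1b, a phosphatase regulator of striatal neurons, fell by 3.04. The sodium channel subunits Scn4b and Scn2b fell by 3.46 (SE 0.64, adjusted p = 8.35e-04) and 2.75 (SE 0.52, adjusted p = 9.66e-04), the potassium channel Kcnc2 of fast-spiking cells by 2.68 and Cacng3, which escorts AMPA receptors, by 2.56.

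Interneuron and neuropeptide genes were lower in common for 15 of 16, with a median of -2.37. Tac1, the precursor of substance P, read 2.32, 5.36, 1.34 and 2.28 FPKM in NRAS tumors 1 to 4, 7.95, 0.689, 2.77 and 1.94 FPKM in PDGFB tumors 1 to 4 and 52.2, 65.1 and 54.4 FPKM in normal brains 1 to 3. Its change of -4.02 (SE 0.43, adjusted p = 3.21e-05) was even, with -4.02 in NRAS and -4.01 in PDGFB tumors. Cartpt, a hypothalamic and striatal peptide, ranged from 0 to 2.22 FPKM in the 8 tumors, with a median of 0.614, and was 87.2, 19.6 and 14.5 FPKM in normal brains 1 to 3, a change of -4.21 (SE 0.49, adjusted p = 5.43e-05). The normal brains themselves differed for such regional genes. Pmch, the hypothalamic melanin-concentrating hormone precursor, was 58.6, 1.95 and 37.9 FPKM in normal brains 1 to 3 and at most 0.961 FPKM in the tumors, a change of -4.04 (SE 0.70, adjusted p = 5.81e-04). Calb2 and Calb1, calcium-binding proteins of interneurons and other neurons, fell by 4.11 and 3.37, and Pcp4, a calmodulin regulator, by 3.61 (SE 0.74, adjusted p = 0.001497).

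The 5 even genes with the lowest changes were Tac1, Baiap3, Unc13c, Otof and Glra2. Baiap3 and Unc13c act in dense-core vesicle and synaptic release, Otof is a calcium sensor of release and Glra2 is a glycine receptor subunit. Baiap3 fell by 3.37, Unc13c by 3.01, Otof by 2.85 (SE 0.19, adjusted p = 1.67e-06) and Glra2 by 2.82. Otof ranged from 0.0489 to 0.814 FPKM in the 8 tumors, with a median of 0.245, and was 7.28, 10.3 and 7.46 FPKM in normal brains 1 to 3. The 5 highest even genes were Cdkn2a, Cdkn2b, Tubb6, Eif4ebp1 and Hmox1. Tubb6, a beta-tubulin, ranged from 86.6 to 179 FPKM in the 8 tumors, with a median of 121, and was 3.203, 3.21 and 3.32 FPKM in normal brains 1 to 3, a change of 4.84 (SE 0.20, adjusted p = 8.80e-08). Eif4ebp1, the inhibitor of cap-dependent translation controlled by mTOR, changed by 4.81 (SE 0.21, adjusted p = 1.66e-07). Hmox1, which degrades heme and is induced by oxidative stress, read 141, 153, 157 and 119.9 FPKM in NRAS tumors 1 to 4, 78.3, 147, 93.4 and 112 FPKM in PDGFB tumors 1 to 4 and 3.74, 3.897 and 3.82 FPKM in normal brains 1 to 3. All 8 tumors were far above normal brain, and the change was 4.67 (SE 0.17, adjusted p = 5.41e-08).

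Myelin genes were lower, with a wide spread among both normal brains and tumors. Of 16 oligodendrocyte and myelin genes 14 were called lower and 9 in common, with a median of -2.53. Mbp, myelin basic protein, which holds the membrane layers of myelin together, read 237, 825, 128 and 531 FPKM in NRAS tumors 1 to 4, 922, 122, 89.2 and 1265 FPKM in PDGFB tumors 1 to 4 and 2754, 1350.5 and 3736 FPKM in normal brains 1 to 3. The highest tumor lay only a little below the lowest normal brain, and the change was -2.83 (SE 0.85, adjusted p = 0.0125). Mobp and Opalin, also made by myelinating oligodendrocytes, fell by 2.93 and 2.82. The count of myelin genes lower in common depended on single normal brains: it was 4 without normal brain 3 and 14 without normal brain 2, and it was 1 with the 2 title number ranges as a covariate. Mbp, Mobp and Opalin did not pass without normal brain 3, nor with that covariate.

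Astrocyte genes were lower in common for 9 of 16, where 24% of all genes tested were, and 1 was called higher, where 33.4% of all genes tested were. Agt, angiotensinogen, ranged from 3.97 to 23.8 FPKM in the 8 tumors, with a median of 5.801, and was 81.9, 26.9 and 31.9 FPKM in normal brains 1 to 3, a change of -2.28 (SE 0.52, adjusted p = 0.00288). With the number series as a covariate 4 astrocyte genes were left in the common set, and Agt, Ntsr2 and Gjb6 did not pass. Ntsr2, a receptor of mature astrocytes, Gjb6, connexin 30 of astrocyte gap junctions, and Slc1a2, the main glutamate transporter, fell by 2.22, 2.202 and 1.89. Gfap, the intermediate filament of astrocytes, was the gene called higher but was not common: it read 457, 567, 1015 and 525 FPKM in NRAS tumors 1 to 4, 394, 96.1, 396 and 494 FPKM in PDGFB tumors 1 to 4 and 135, 126 and 103 FPKM in normal brains 1 to 3. PDGFB tumor 2 lay below all 3 normal brains and the other 7 tumors above them.

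Ependyma and choroid plexus genes were lower in common for 11 of 14 tested, with a median of -1.83. Ttr, transthyretin, which the choroid plexus secretes into the cerebrospinal fluid, read 36.5, 0.501, 0.173 and 1.34 FPKM in NRAS tumors 1 to 4, 236, 81.2, 0.126 and 798 FPKM in PDGFB tumors 1 to 4 and 811, 2002 and 1595 FPKM in normal brains 1 to 3. The tumors differed from each other by several orders of magnitude, and the change of -6.51 (SE 1.68, adjusted p = 0.00576) was the lowest of the named genes. It did not pass with the 2 title number ranges as a covariate (-4.87, adjusted p = 0.147). Enpp2, autotaxin, Kl, klotho, and Clic6, a chloride channel of the plexus, fell by 2.45 (SE 0.31, adjusted p = 9.73e-05), 2.43 (SE 0.28, adjusted p = 5.51e-05) and 2.41 (SE 0.33, adjusted p = 1.32e-04).

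Of 26 neural progenitor genes tested 16 were called higher, 9 in common, and 6 were lower, all in common. Of all genes tested 33.4% were called higher, 24.4% were higher in common and 24% lower in common, so the count lower in common was near that background. The list median was 0.74. The genes that follow were chosen for the largest common change in either direction and all rose, so they do not stand for the whole list. Nes, nestin, an intermediate filament of neural stem cells, read 43.7, 38.97, 35.7 and 46.5 FPKM in NRAS tumors 1 to 4, 54.9, 68.8, 65.3 and 63.02 FPKM in PDGFB tumors 1 to 4 and 1.93, 2.54 and 2.503 FPKM in normal brains 1 to 3. The tumors were tightly grouped, the change was 3.97 (SE 0.12, adjusted p = 2.23e-08), and it was larger in PDGFB (4.27) than in NRAS tumors (3.66) by an amount that passed the test although the interval lay inside 2-fold. Vim, vimentin, ranged from 469 to 1232 FPKM in the 8 tumors, with a median of 957, and was 25.3, 30.8 and 27.3 FPKM in normal brains 1 to 3, a change of 4.95 (SE 0.22, adjusted p = 1.61e-07). Fabp7, a fatty acid binder of radial glia, and Igf2bp2, an RNA-binding protein of fetal tissue, changed by 3.66 (SE 0.50, adjusted p = 1.33e-04) and 3.05 (SE 0.56, adjusted p = 7.59e-04).

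Of 28 extracellular matrix genes 15 were higher and 2 lower in common, 8 did not pass, and of 34 genes of adhesion and the actin cytoskeleton 23 were higher in common and none lower, where 24.4% of all genes tested were higher and 24% lower in common. Timp1, the metalloproteinase inhibitor, read 245, 104, 271 and 158 FPKM in NRAS tumors 1 to 4, 36.96, 24.4, 28.5 and 37.2 FPKM in PDGFB tumors 1 to 4 and 0.301, 0.687 and 0.751 FPKM in normal brains 1 to 3. All tumors were above normal brain and all NRAS tumors above all PDGFB tumors, with changes of 6.87 and 4.37. Tnc, tenascin C, Spp1, osteopontin, and Col18a1, the collagen that holds endostatin, changed by 4.92 (SE 0.23, adjusted p = 2.41e-07), 4.46 (SE 0.25, adjusted p = 7.40e-07) and 3.31 (SE 0.18, adjusted p = 6.53e-07). Col18a1 was even, and Tnc and Spp1 had moved further in NRAS tumors.

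Tagln2, an actin-binding protein, ranged from 142 to 470.3 FPKM in the 8 tumors, with a median of 238, and was 9.52, 7.77 and 9.12 FPKM in normal brains 1 to 3, a change of 4.71 (SE 0.17, adjusted p = 5.41e-08) that was larger in PDGFB tumors. Cd44, the hyaluronan receptor, read 66.5, 63.1, 97.4 and 61.3 FPKM in NRAS tumors 1 to 4, 19.1, 23.9, 17.5 and 14.8 FPKM in PDGFB tumors 1 to 4 and 1.98, 2.13 and 2.05 FPKM in normal brains 1 to 3. It was higher in all 8 tumors, with 4.55 in NRAS and 2.68 in PDGFB tumors. Msn, moesin, which links actin to the membrane, and S100a11, a calcium-binding protein, changed by 3.61 and 3.55, both further in NRAS tumors. Macrophages also express Cd44, Spp1, Msn and S100a11, and the summed level of the monocyte and macrophage list was 3135, 1757, 2517 and 7277 FPKM in NRAS tumors 1 to 4, 770.02, 737, 743 and 1493 FPKM in PDGFB tumors 1 to 4 and 1363, 1281 and 1131 FPKM in normal brains 1 to 3. Such a sum mostly follows the most abundant genes of the list. With each gene given equal weight, as the list mean of log2(FPKM + 1), the order differed. That mean lay between 2.34 and 2.81 for the PDGFB group, between 4.05 and 5.97 for the NRAS group and at 1.73 to 1.74 for normal brain. Of the 20 genes in the list 17 were called higher and none lower. The part of macrophages in the matrix and adhesion changes was not tested.

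Of 22 genes of MAPK feedback and growth signaling 18 were called higher and none lower, and 4 did not pass. In common 14 were higher, where 24.4% of all genes tested were, with a median of 1.44. Spry1 and Spry4, feedback inhibitors of receptor tyrosine kinase signals, changed by 3.35 (SE 0.24, adjusted p = 2.59e-06) and 3.27 (SE 0.19, adjusted p = 8.15e-07). Spry4 ranged from 26.3 to 52.99 FPKM in the 8 tumors, with a median of 40.5, and was 4.02, 2.78 and 3.03 FPKM in normal brains 1 to 3. It was even between the models, while Spry1 was higher in PDGFB tumors. Myc and Ccnd1, also in this list, are described above.

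Hypoxia and vascular genes changed in both directions, as did all genes tested, of which 24.4% were higher and 24% lower in common. Of 15 hypoxia and angiogenesis genes tested 5 were higher and 3 lower in common. Adm, adrenomedullin, a vasodilator peptide, ranged from 9.11 to 52.4 FPKM in the 8 tumors, with a median of 17.3, and was 2.02, 0.987 and 1.399 FPKM in normal brains 1 to 3, a change of 2.93 (SE 0.38, adjusted p = 1.03e-04), and Plod2, a collagen lysyl hydroxylase, changed by 2.91 (SE 0.19, adjusted p = 1.47e-06). Ndrg1 and P4ha2, which hypoxia also raises in many cells, were lower, by 1.88 and 1.02. Of 22 genes of endothelium and pericytes 4 were higher and 3 lower in common. Angpt2, an angiopoietin of remodeling vessels, ranged from 3.02 to 35.6 FPKM in the 8 tumors, with a median of 16.7, and was 1.15, 0.641 and 1.52 FPKM in normal brains 1 to 3, a change of 2.98 (SE 0.51, adjusted p = 4.82e-04). Esm1, a marker of sprouting endothelial tips, changed by 1.13 (SE 0.33, adjusted p = 0.0114). Slco1a4, a transporter of the blood-brain barrier, and Vtn, vitronectin of brain pericytes, fell by 1.83 (SE 0.34, adjusted p = 8.50e-04) and 1.58 (SE 0.24, adjusted p = 2.33e-04). The summed level of the vascular list ranged from 189 to 255 FPKM in the 8 tumors and was 216, 209.9 and 223 FPKM in normal brains 1 to 3, so the groups overlapped.

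The immune lists differed from each other: most antigen presentation and interferon genes were higher in common, but few T cell, B cell, neutrophil and homeostatic microglia genes were. All 20 antigen presentation genes were called higher, 16 in common, and 15 of these were unequal, in every case further in NRAS tumors. The list median was 4.51 in NRAS and 1.65 in PDGFB tumors. Cd74, the invariant chain of MHC class II, read 1225, 253, 2063 and 2684 FPKM in NRAS tumors 1 to 4, 11.8, 34.8, 12.98 and 35.1 FPKM in PDGFB tumors 1 to 4 and 6.26, 8.16 and 4.23 FPKM in normal brains 1 to 3. Every tumor exceeded every normal brain, but the NRAS minus PDGFB difference was 5.71 (SE 0.66, adjusted p = 3.84e-04), the largest of the named genes in the NRAS direction. H2-Aa and H2-Ab1, class II chains, changed by 4.45 (SE 0.68, adjusted p = 2.78e-04) and 4.22 (SE 0.62, adjusted p = 2.07e-04). Psmb8, a subunit of the immunoproteasome, ranged from 13.2 to 452 FPKM in the 8 tumors, with a median of 62.1, and was 3.01, 2.003 and 2.59 FPKM in normal brains 1 to 3, a change of 4.30 (SE 0.70, adjusted p = 3.72e-04).

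Interferon response genes were called higher for 23 of 24, 20 in common, and 18 of those were unequal with NRAS tumors further. Igtp, an interferon-induced GTPase, read 119, 53.98, 742 and 212 FPKM in NRAS tumors 1 to 4, 3.697, 67.04, 2.397 and 3.15 FPKM in PDGFB tumors 1 to 4 and 1.79, 0.947 and 1.03 FPKM in normal brains 1 to 3. PDGFB tumor 2 stood apart from the other PDGFB tumors, and the change was 4.11 (SE 0.92, adjusted p = 0.00254). Gbp3, Gbp2 and Bst2, also induced by interferons, changed by 3.65, 3.59 and 3.47. PDGFB tumor 2 was also the highest of its group for Gbp3 (37.1 FPKM) and Gbp2 (45.8 FPKM). With the 2 title number ranges as a covariate 5 interferon and 8 antigen presentation genes were left in the common set, and Igtp, Gbp2 and Bst2 did not pass.

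Complement and Fc receptor genes were higher in common for 10 of 15, and monocyte and macrophage genes for 9 of 20, where 24.4% of all genes tested were. All 10 of the first list and 8 of the 9 of the second were unequal, in every case further in NRAS tumors. The list medians were 3.27 in NRAS and 0.97 in PDGFB tumors for complement and Fc receptors. For monocytes and macrophages they were 2.94 and 0.72. C4b, a complement component also made by glia, ranged from 14.97 to 88.6 FPKM in the 8 tumors, with a median of 27.98, and was 2.39, 3.21 and 2.73 FPKM in normal brains 1 to 3, a change of 3.15 (SE 0.34, adjusted p = 3.69e-05). C1qc and C1qb, made by microglia and macrophages, changed by 2.49 and 2.32, and Cfb, complement factor B, by 2.56 (SE 0.62, adjusted p = 0.00417). Cfb did not pass with the number series as a covariate. Lgals3, galectin 3 of activated myeloid cells, read 94.96, 84.1, 114 and 131 FPKM in NRAS tumors 1 to 4, 5.08, 12.3, 7.198 and 10.3 FPKM in PDGFB tumors 1 to 4 and 1.28, 0.698 and 0.731 FPKM in normal brains 1 to 3. Its NRAS and PDGFB tumors did not overlap with each other or with normal brain. Lyz2, lysozyme of myeloid cells, changed by 4.01 (SE 0.70, adjusted p = 5.63e-04), Fcgr4, an activating Fc receptor, by 3.10 and Gpnmb, of macrophages and pigment cells, by 3.08.

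Of 13 homeostatic microglia genes tested 4 were called higher and 2 lower, where 33.4% of all genes tested were called higher and 31% lower. The list median was 0.93 in NRAS and -0.51 in PDGFB tumors, so by this median the models moved in opposite directions. The list mean of log2(FPKM + 1) was 3.95 to 4.77 in NRAS tumors, 2.55 to 4.05 in PDGFB tumors and 3.62 to 3.86 in normal brain. Sall1, a transcription factor of microglia and of fetal progenitors, was higher in common at 1.23 (SE 0.14, adjusted p = 5.96e-05). Gpr34 and P2ry12, purinergic-type receptors of resting microglia, were lower in common at -1.19 (SE 0.43, adjusted p = 0.0308) and -0.997 (SE 0.40, adjusted p = 0.0484), and both are near the threshold. P2ry12 did not pass under 16 of the 26 other settings tried and Gpr34 under 6. T and NK cell genes were called higher for 8 of 16 tested (1, 2 and 2 without normal brain 1, 2 or 3) and in common for 1, Il2rg, the shared chain of several interleukin receptors, at 2.81 (SE 0.53, adjusted p = 9.58e-04). Their summed level was 82.7, 29.01, 256 and 496 FPKM in NRAS tumors 1 to 4, 8.29, 7.96, 5.83 and 9.29 FPKM in PDGFB tumors 1 to 4 and 4.31, 4.79 and 10.1 FPKM in normal brains 1 to 3, so the PDGFB tumors overlapped with normal brain. Of the B cell and neutrophil genes 1 of 8 tested was higher in common, Lcn2, lipocalin 2, which neutrophils and reactive astrocytes make, at 5.01 (SE 1.08, adjusted p = 0.00202), and it did not pass with the number series as a covariate (adjusted p = 0.1001). The erythrocyte genes Hba-a2 and Hba-a1 were not called (0.93 and -0.55).

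**Figure D4:**
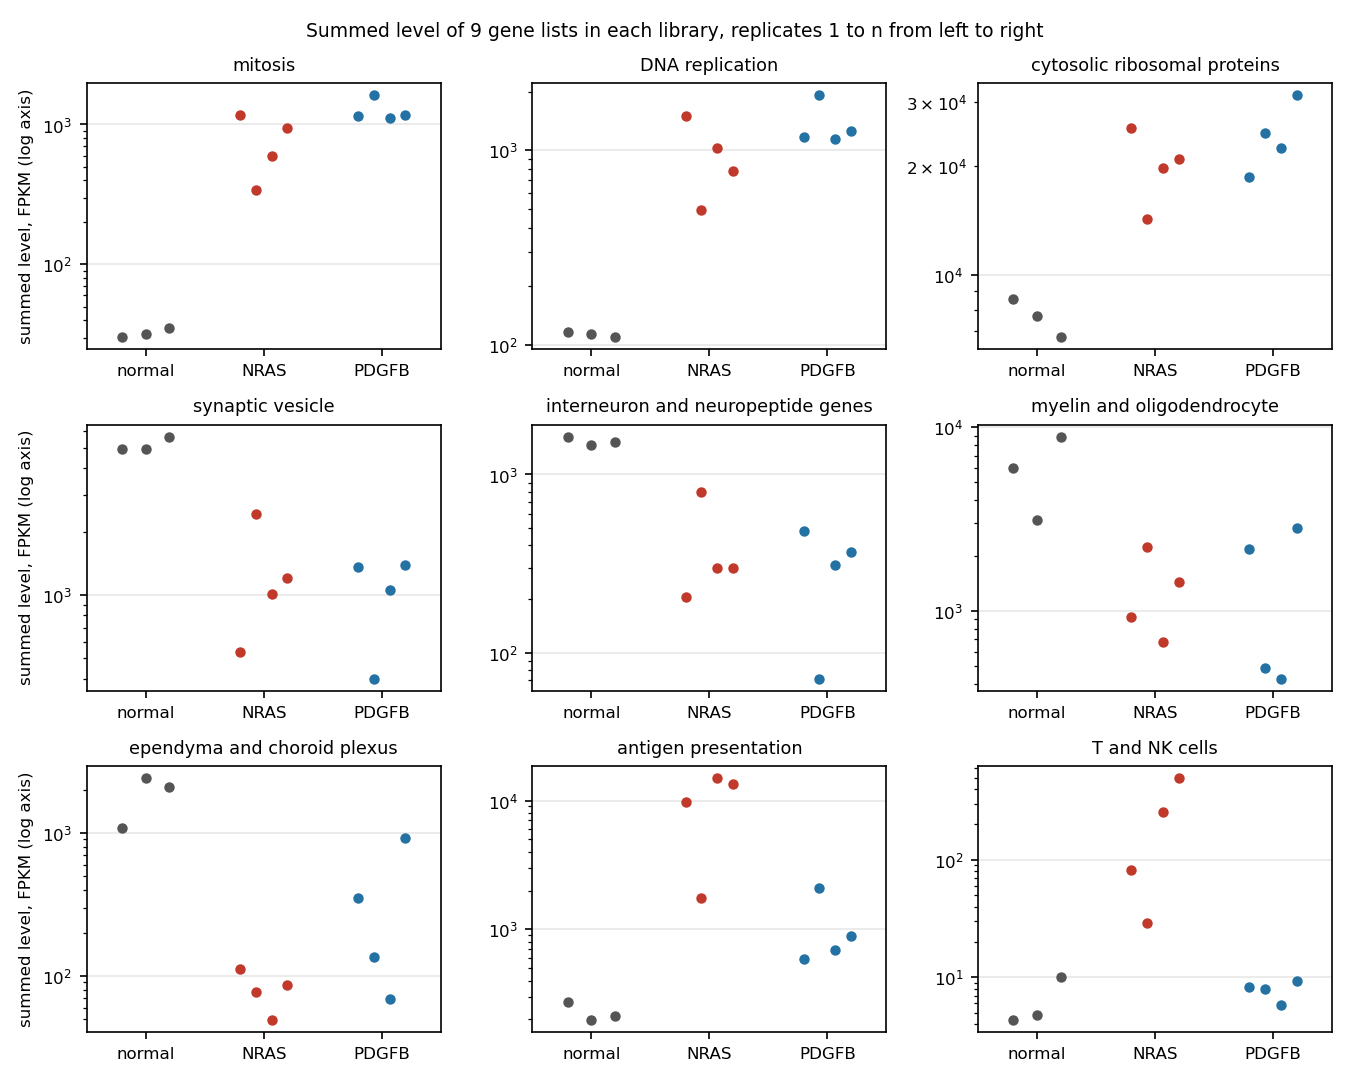
Summed level in FPKM (log axis) of 9 gene lists, 1 point per library with replicates from left to right, grey for normal brain, red for NRAS and blue for PDGFB tumors. The mitosis, replication and ribosomal lists lie above and the neuronal, myelin and ependymal lists below normal brain in all 8 tumors, whereas the T and NK cell list is above normal brain in the 4 NRAS tumors only.

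The models moved by the most different amounts within the common set for Cd74, H2-Aa and Clec7a on the NRAS side and Mmp10, Gsx1 and Moxd1 on the PDGFB side. Clec7a, a beta-glucan receptor of myeloid cells, read 51.5, 50.3, 254 and 52.2 FPKM in NRAS tumors 1 to 4, 0.408, 2.84, 0.336 and 0.6498 FPKM in PDGFB tumors 1 to 4 and 0.171, 0.213 and 0.112 FPKM in normal brains 1 to 3. The PDGFB tumors were only just above normal brain, and the difference between the models was 5.39 (SE 0.51, adjusted p = 1.63e-04). Mmp10, a matrix metalloproteinase, read 1.32, 0.112, 1.01 and 0.9805 FPKM in NRAS tumors 1 to 4, 26.8, 17.2, 37.5 and 38.3 FPKM in PDGFB tumors 1 to 4 and 0, 0 and 0.0941 FPKM in normal brains 1 to 3. Here the NRAS tumors were the ones near normal brain, with a difference of -4.05 (SE 0.28, adjusted p = 2.01e-05). With all 8 tumors as 1 group in the fit neither Clec7a nor Mmp10 passed. Gsx1, a homeobox factor of the ventral forebrain progenitors, ranged from 1.42 to 40.3 FPKM in the 8 tumors, with a median of 20.4, and was 0.3596, 0.263 and 0.138 FPKM in normal brains 1 to 3, with a difference of -2.51 (SE 0.45, adjusted p = 0.00297). Moxd1, a monooxygenase-like protein, differed by -2.39 (SE 0.57, adjusted p = 0.0109).

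**Figure D5:**
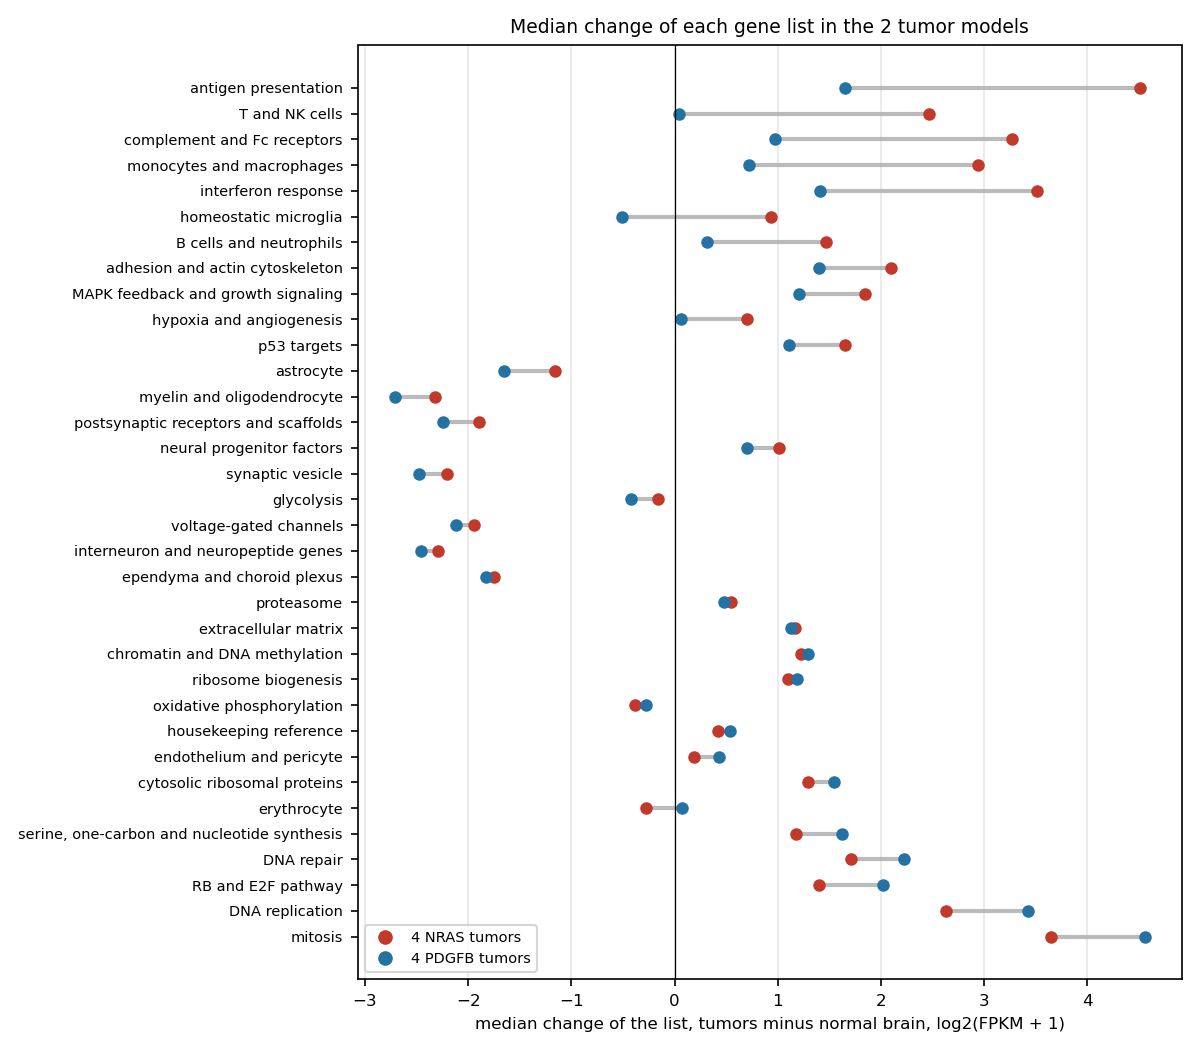
Median change from normal brain in log2(FPKM + 1) of each gene list in the 4 NRAS tumors (red) and the 4 PDGFB tumors (blue), ordered by the gap between them. Immune lists at the top have the NRAS point far to the right (4.51 against 1.65 for antigen presentation), the ribosome and neuronal lists have points close together, and for mitosis at the bottom the PDGFB point is further right (4.55 against 3.65). Both models are set against the same 3 normal brains.

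Genes used as references were not all stable. Of 15 housekeeping genes 8 were higher and 3 lower in common, where 24.4% and 24% of all genes tested were. B2m, the light chain of MHC class I, ranged from 308 to 5058 FPKM in the 8 tumors, with a median of 792, and was 133, 85.02 and 105 FPKM in normal brains 1 to 3, a change of 3.36 (SE 0.56, adjusted p = 4.23e-04), Gusb, a lysosomal enzyme, changed by 2.07 and Eef1a1, a translation elongation factor, by 1.68 (SE 0.22, adjusted p = 1.21e-04). Of 23 proteasome genes 14 were higher in common, all 14 even, with a median of 0.52. Psmb2, Psmb3, Psma7 and Psma3 had the largest of these changes, at 0.86, 0.84, 0.82 and 0.79. None of the 23 was called within title numbers 1834 to 1838 or with the number series as a covariate.

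The smaller comparison inside title numbers 1834 to 1838, of NRAS tumors 1 and 2 with the 3 normal brains, gave 3427 genes higher and 3074 lower with both tumors beyond all normal brains, and held 5245 of the 7021 common genes (74.7%). There the median change was 2.64 for DNA replication, 3.53 for mitosis, 1.29 for ribosomal proteins and -2.17 for synaptic vesicle genes. Cdkn2a changed by 7.98, Top2a by 4.94 and Tac1 by -3.66 in these 5 libraries. The same 5 libraries are part of the main comparison. Every common gene has both of these tumors beyond all 3 normal brains by definition, so the overlap is not a separate test of the common set. PDGFB tumors have no normal brain with a title number of their own series, so no such value can be given for them.

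Genes changed in common also differed in gene span, which the choice of the set did not use and which was not tested. The median gene span in RefSeq was 18.1 kb for genes higher in common, 33.3 kb for genes lower in common and 23.7 kb over all genes tested, with positions for at least 95.6% of each set. A span over 100 kb was found for 6.75% of the higher, 23.4% of the lower and 14.7% of all genes tested. Long noncoding RNA genes numbered 50 among the 3539 higher genes, 147 among the 3482 lower genes and 447 among all 14491 genes tested. The genes higher in common that were listed at 0 in all 3 normal brains numbered 10 and have no fold change: Adm2, Apoc2, Car6, Cd69, Chil3, Cyp4f18, Fosl1, Gimap7, Ms4a4c and Slfn1. They include lymphocyte and myeloid genes (Cd69, Chil3, Gimap7, Slfn1) and Fosl1, a subunit of the AP-1 transcription factor, which read 5.88, 2.63, 4.02 and 6.27 FPKM in NRAS tumors 1 to 4 and 0.175, 0.473, 0.216 and 0.167 FPKM in PDGFB tumors 1 to 4. These 10 genes were named after their values were seen.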

How the data were processed

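RNA from 11 mouse brain samples (4 NRAS tumors, 4 PDGFB tumors, 3 normal brains) was sequenced by the authors, who deposited 1 table of FPKM values per gene and sample. TopHat2 2.0.13, Cufflinks 2.2.1 and mm10 are named, per the submitters' processing notes; no source used here names the gene annotation, the strandedness or the read counts. FPKM are scaled per library, so a gene's value also depends on all others, among them the small RNA genes.

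Of 24347 rows, 27 whose names a spreadsheet had turned into dates were left out; 96.8% of the rest matched a current symbol. No 2 libraries were identical (highest correlation 0.979). Values were tested as log2(FPKM + 1), a pseudocount of 1, with limma 3.58.1 in R 4.3.3 (lmFit, contrasts.fit, eBayes with trend), 1 mean per group, two-sided, and p-values were adjusted by Benjamini and Hochberg across the 14491 genes that reached 1 FPKM in 3 libraries. No depth of reads is known, so no counting error is given. The procedure was tested on simulated data.

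Named genes are Nras and Pdgfb; the 10 highest and 10 lowest common changes where tumor or normal mean was 5 FPKM or more (predicted or clone names, small RNAs and globins aside); 5 each way among even and 3 each way among unequal genes by the same limits; and per list up to 4 common members with the largest change, or else up to 2 with the smallest p. A few genes that this rule names are not reported here. Anln, Sv2c, Gfap and the genes of the closing observations were named after their values were seen. The members, the 35 gene lists and the tests were chosen with earlier results of these data known. Samples with the same replicate number did not deviate together (correlations from -0.499 to 0.158), so the numbers do not pair them. The main fit treated all libraries as independent, also those labelled as matched. The alternatives were other pseudocounts, filters, scalings and fits, a replicate block, the title number series as a covariate, and leaving out each library. Among the other fits were the matched samples as a random block and Y-linked expression as a covariate. Promoters and gene positions are from RefSeq GRCm38.p6.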

Additional observations from a re-analysis of the deposited data

Results flagged for a closer look

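Single libraries stood far from the rest of their group of 4 for 13 of 280 pairs of a named gene and a tumor group examined. Chance alone flags about 1 in 20 groups, so the number of flags is no more than chance alone would give. The pairs come from the same 8 tumors and are not independent, so this number cannot decide whether the flagged values are chance. The values follow as a description. PDGFB tumor 2 accounted for 8 of them. It was the highest PDGFB tumor for Rrm2 (102.6 FPKM, the others 73.7 to 76.5), Mcm6 (114 FPKM, the others 62.9 to 66.9), Mcm2 (93.8 FPKM, the others 58.2 to 60.4), genes of DNA replication, and for Uhrf1 (61.0 FPKM, the others 39.4 to 42.1), which guides maintenance of DNA methylation. It was also the highest for the interferon-induced genes Igtp (67.0 FPKM, the others 2.40 to 3.70), Gbp3 (37.1 FPKM, the others 6.53 to 8.57) and Gbp2 (45.8 FPKM, the others 2.93 to 3.96). For Cacng3, a synaptic gene, it was the lowest (1.27 FPKM, the others 9.99 to 10.7).

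NRAS tumor 2 was the lowest NRAS tumor for Ddx21 (24.2 FPKM, the others 42.5 to 45.8) and Psma3 (95.6 FPKM, the others 154 to 168). NRAS tumor 4 was the lowest for Cdkn2b (23.2 FPKM, the others 85.3 to 95.3). NRAS tumor 3 was the highest for Clec7a (254 FPKM, the others 50.3 to 52.2), and NRAS tumor 1 was the highest for Esm1 (2.07 FPKM, the others 0.151 to 0.282).

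The difference between the models, tested in the fit over all genes, was flagged for 6 common genes: Cd74 (NRAS minus PDGFB 5.71), H2-Aa (5.56) and Clec7a (5.39), which were further above normal brain in NRAS tumors, and Mmp10 (-4.05), Gsx1 (-2.51) and Moxd1 (-2.39), which were further above it in PDGFB tumors.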

How the results depend on the processing

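The counts of genes higher and lower in common kept within 1.5 times of 3539 and 3482 under all 26 alternatives, and no gene changed in common was common in the opposite direction under any of them. With the 2 title number ranges as a covariate, 5771 genes were called, 2916 higher and 2855 lower, and 2445 and 2520 were common, 2831 of them even and 818 unequal; 70.7% of the 7021 common genes were kept. Leaving out each library in turn gave 7908 to 9798 called genes (4052 to 5161 higher, 3843 to 4637 lower), 3481 to 3770 and 3465 to 3680 in common, 4546 to 5310 even and 857 to 1582 unequal. Leaving small RNA genes out and rescaling moved the median change of all genes from 0.05 to -0.09, and 2907 genes were then higher and 4035 lower in common. With all 8 tumors as 1 group 7846 genes were called. The matched samples as a random block (correlation 0.078) gave 9339 called genes, and Y-linked expression as a covariate gave 8788. The Y-linked Ddx3y read 20.7, 22.2 and 0.0164 FPKM in normal brains 1 to 3. In NRAS tumors 1 to 4 it read 0, 18.5, 0 and 23.7 FPKM, and in PDGFB tumors 1 to 4 0.0150, 22.2, 0 and 0 FPKM. A replicate block left 8638 called, with 3413 higher and 3381 lower in common, 4477 even and 1000 unequal; the replicate numbers do not pair the samples, and P2ry12 was the 1 named gene that did not pass with the block.

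Of 140 named genes, 111 kept their call under every alternative and 27 lost it under at least 1, which was outside the number series settings for 12. With all 8 tumors as 1 group Pdgfb, Clec7a, Mmp10, Esm1, Gbp2, Cfb and P2ry12 did not pass. With the series as a covariate the signs of Hba-a2 (-0.031) and Hba-a1 (0.083) reversed, and within title numbers 1834 to 1838 those of Hba-a2 (-0.0056) and Pdgfb (-0.29); the cause was not tested, except that no PDGFB tumor is in the second. Hba-a1 was called only without normal brain 1 and Hba-a2 only without PDGFB tumor 2. The same covariate left 4 of 8 glycolysis genes lower in common and 6 of 10 complement genes higher in common. Values near or under 1 FPKM are limited by an unknown depth.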

Other observations

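The groups in the next paragraphs were looked at after their values were seen and carry no test of their own. Of all genes tested 24.4% were higher and 24% lower in common, and the counts of each group stand against these shares. Imprinted genes, which are expressed from 1 parental copy and are known for roles in fetal growth, were lower in common for 15 of 33 tested and higher in common for 3, with a median change of -1.13. Igf2, the fetal growth factor, ranged from 1.104 to 10.9 FPKM in the 8 tumors, with a median of 4.86, and was 39.2, 59.3 and 39.99 FPKM in normal brains 1 to 3, a change of -3.01 (SE 0.52, adjusted p = 5.22e-04), while H19, its noncoding neighbor, ranged from 2.31 to 67.4 FPKM in the 8 tumors, with a median of 4.17, and was 0.102, 0.0663 and 0.139 FPKM in normal brains 1 to 3, a change of 3.07 (SE 0.58, adjusted p = 9.14e-04). The 2 genes thus moved in opposite directions in every tumor. Igf2 in adult brain is known from choroid plexus and meninges, and the choroid plexus genes of the report were lower in the same tumors; their part in the fall of Igf2 was not tested. The noncoding RNAs Meg3, Rian and Mirg of the Dlk1 locus fell by 2.63, 2.19 and 1.90. Genes of the Prader-Willi region on the same side were Ndn, Magel2, Snrpn and Snurf (-2.28, -1.91, -2.13 and -1.93), whereas Peg12 of that region was higher in common at 2.63 (SE 0.19, adjusted p = 3.35e-06). Mkrn3 of the same region was called higher at 0.59 (SE 0.15, adjusted p = 0.00535) but was not common, and Ube3a did not pass (-0.02). Snrpn and Snurf share a transcript, so their values are not independent.

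Amino acid response and tRNA charging genes were higher in common for 14 of 24 tested, and none was called lower. Trib3, a pseudokinase induced by ATF4, ranged from 3.69 to 19.4 FPKM in the 8 tumors, with a median of 7.96, and was 0.115, 0.261 and 0.117 FPKM in normal brains 1 to 3, a change of 2.93 (SE 0.37, adjusted p = 8.79e-05). Atf5 and Slc7a5, a transcription factor of that response and a transporter of large neutral amino acids, changed by 2.78 (SE 0.18, adjusted p = 1.39e-06) and 2.43 (SE 0.22, adjusted p = 1.22e-05). The tRNA synthetase genes Tars, Lars, Cars and Eprs were higher by 1.59, 1.57, 1.37 and 1.29.

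Circadian clock genes were lower in common for 9 of 17 and higher for 1, against 24% and 24.4% of all genes tested. The clock output factors Hlf, Dbp and Tef fell by 1.92 (SE 0.50, adjusted p = 0.00594), 1.71 (SE 0.43, adjusted p = 0.00474) and 1.49 (SE 0.25, adjusted p = 4.35e-04), and Cry2 by 1.53, while Cry1 rose by 0.59 (SE 0.18, adjusted p = 0.0152). The time of day of tissue collection is not recorded in the labels. Host genes of small nucleolar RNAs were higher in common for 8 of 14 tested, with Snhg1 at 2.45 (SE 0.28, adjusted p = 4.56e-05), Snhg5 at 1.64 and Gas5 at 1.02, and 1 was lower, the neuronal Snhg11 at -2.98. Genes of cholesterol synthesis showed little of this kind, with none of 20 higher and 1 lower in common.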
